A study of Mus musculus with 37 samples.

Results

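The genes described here are 34 genes of the unfolded protein response and the integrated stress response. They were taken from a fixed list of symbols, chosen with earlier results of these data known. All 34 were found among the 25239 gene rows of the count table, and all 34 were among the 15046 genes that passed the filter on low counts. They comprise 6 sensors and transcription factors (Ern1, Eif2ak3, Atf6, Xbp1, Atf4, Ddit3) and 15 chaperones and folding enzymes of the endoplasmic reticulum (ER). The others are 8 genes of ER-associated degradation and 5 target genes of the integrated stress response. Bulk RNA of whole mouse hearts, taken from embryos at E10.5, was sequenced in 37 libraries of 4 genotypes. Fathers were Stra8-iCre; Nipbl Flox/+ and passed on either the Flox allele, which works as wild-type, or the null allele FIN. Mothers were Isl1 Cre/+, with Cre recombinase placed in 1 Isl1 allele and 1 working Isl1 allele left. The groups are Nipbl +/+; Isl1 +/+ (wild-type, n = 10), Isl1 +/- (Isl1_het, n = 9), Nipbl +/- (Nipbl_het, n = 9) and Nipbl +/-; Isl1 +/- (double_het, n = 9). Every embryo labelled Isl1 +/- therefore also carries the Cre gene, and an effect of Cre cannot be told apart from the loss of 1 Isl1 allele. Each label also holds a set number, which was used as a covariate (sets 1, 2, 5, 6 and 7).

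The ER folds and exports secreted and membrane proteins. When unfolded proteins build up there, IRE1 (encoded by Ern1), PERK (Eif2ak3) and ATF6 pass a signal to the nucleus, where XBP1, ATF4 and cleaved ATF6 turn on chaperones, degradation factors and, with longer stress, CHOP (Ddit3). PERK acts by phosphorylating eIF2 alpha, a step shared with kinases that sense amino acid shortage, haem shortage and double-stranded RNA, so that ATF4 target genes can rise without ER stress. In the embryonic heart, calreticulin is known to be needed for normal development. Gene counts do not resolve the splicing of Xbp1 RNA by IRE1 or the cleavage of ATF6, so the RNA levels below report the output of these branches and not the activity of the sensors.

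The promoters of several members carry the short sequences that these factors are known to bind, and a few are shown, for genes named in the results below, as examples of each motif. Promoter windows of 250 bases before to 50 bases after the RefSeq start (assembly GRCm38.p6, the same build as the GRCm38 and mm10 named in the submitters' processing notes) were at hand for 30 of the 34 members. In 22 of their 31 windows the bases after the start lay in a GENCODE transcript of the gene, so positions given relative to the start are less certain for the others. The ER stress response element (ERSE), searched on both strands as CCAAT and CCACG with 9 bases of any kind between them, is the sequence bound by ATF6 and XBP1 together with NF-Y. It was present in 10 of these 30 members (33.3%), against 0.137% of the 27025 genes with a window. The shorter ERSE-II, ATTGG and CCACG with 1 base of any kind between them, was present in Dnajb11 and Herpud1, against 0.0444% of genes. The CARE sequence bound by ATF4 with C/EBP partners, TGATGNAAN, was present in Herpud1, Trib3, Chac1 and Asns (13.3% of 30, against 4.50% of genes). The motif letters are in capitals, and each sequence is given on the strand on which the motif reads.
Hspa5, ERSE: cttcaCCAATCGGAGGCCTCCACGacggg
Hsp90b1, ERSE, nearer copy: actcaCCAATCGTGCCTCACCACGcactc
Hsp90b1, ERSE, farther copy: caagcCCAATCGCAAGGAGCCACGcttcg
Creld2, ERSE: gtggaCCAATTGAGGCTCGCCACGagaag
Derl3, ERSE: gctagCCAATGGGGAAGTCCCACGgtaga
Herpud1, ERSE-II: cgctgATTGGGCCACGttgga
Herpud1, CARE: gggtgcgggcTGATGCAACccgccgtggt
Trib3, CARE: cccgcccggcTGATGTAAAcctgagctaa
Chac1, CARE: ctggcaggagTGATGCAACggcagggaag
Asns, CARE: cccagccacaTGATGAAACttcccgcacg

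The Hspa5 element lies at chr2:34772025-34772043, upstream of the start of this plus-strand gene. The Hsp90b1 elements lie at chr10:86705533-86705551 and chr10:86705638-86705656, both upstream of a minus-strand gene. The Creld2 element lies at chr15:88819520-88819538 and the Derl3 element at chr10:75893242-75893260, both upstream of plus-strand genes. In Herpud1, on the plus strand, the CARE sequence at chr8:94386316-94386324 and the ERSE-II at chr8:94386377-94386387 are both upstream of the start. The Chac1 sequence at chr2:119351048-119351056 and the Asns sequence at chr6:7693224-7693232 are upstream, and that of Trib3 at chr2:152344039-152344047 lies just after the start. The other members with an ERSE were Dnajc3, Pdia6, Calr, Canx, Ero1lb and Syvn1. A match in this window is a description of the letters and was not tested as a binding site.

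The 250 bases upstream of Derl3, the gene with the largest difference in the library described below, are shown on the gene's own strand at chr10:75893148-75893397. The ERSE appears there as its reverse complement, in capitals. The same stretch of Hspa5, at chr2:34771840-34772089, holds the element on the gene's strand, nearer to the start.
Derl3, 250 bases upstream: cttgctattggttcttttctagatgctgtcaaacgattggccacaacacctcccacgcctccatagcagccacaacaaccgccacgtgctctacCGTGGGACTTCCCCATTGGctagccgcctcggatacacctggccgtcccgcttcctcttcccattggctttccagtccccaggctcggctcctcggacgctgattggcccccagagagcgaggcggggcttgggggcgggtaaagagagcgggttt
Hspa5, 250 bases upstream: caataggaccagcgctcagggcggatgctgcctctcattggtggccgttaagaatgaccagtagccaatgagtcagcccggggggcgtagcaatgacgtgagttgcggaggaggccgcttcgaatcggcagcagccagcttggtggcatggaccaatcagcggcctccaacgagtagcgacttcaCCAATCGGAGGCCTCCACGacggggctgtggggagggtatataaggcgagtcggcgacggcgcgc

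Depth per library ran from 23.4 to 51.0 megacounts (units of 1e6 counts), with a median of 36.2 megacounts, and no library pair of 1 group agreed within sampling noise. Levels are given as CPM (each count as a share of 1e6 counts of its library) after TMM scaling, and changes as log2 values from edgeR's quasi-likelihood test with genotype and set number in the model and Benjamini-Hochberg adjustment over all genes tested. The labels do not say more of how the samples were taken, so p-values measure the spread between these samples. Of the targeted genes, Nipbl went against 1 label and Isl1 did not separate its groups. Nipbl stood at 27.1 to 44.9 CPM in 8 Nipbl_het libraries and at 28.2 to 51.5 CPM in double_het, and at 47.6 to 78.8 CPM in wild-type, while the library labelled Nipbl_het replicate 2 had 72.4 CPM. Isl1 stood at 5.03 to 13.0 CPM in wild-type, 4.38 to 10.4 CPM in Isl1_het, 9.11 to 17.5 CPM in Nipbl_het and 4.80 to 15.1 CPM in double_het, where replicate 6 was above every wild-type heart. Heart muscle markers summed to 37941 CPM in the library labelled Nipbl_het replicate 2, within the 30460 to 47054 CPM of the others. The counts of members that passed are given with and without the library labelled Nipbl_het replicate 2. In bulk RNA, a change in the number of cells of a type and a change of RNA per cell cannot be told apart.

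In wild-type hearts the 7 most abundant members per length were chaperones and folding enzymes of the ER, and the least abundant was the sensor Ern1. In RPKM (CPM per kilobase of GENCODE M21 exon), calreticulin (Calr, a calcium-binding lectin chaperone) stood at 443 ± 27.2 (SD, n = 10). It was followed by Hsp90b1 (the ER form of HSP90) at 352 ± 33.7, Hspa5 (BiP, the main ER chaperone and brake of the sensors) at 304 ± 31.8 and Pdia3 (a disulfide isomerase that works with calreticulin) at 255 ± 22.1. The ranges of Hsp90b1, at 298 to 415, and Hspa5, at 267 to 355, overlapped, as did those of Hspa5 and Pdia3 and, from 399.9 RPKM upward, those of Calr and Hsp90b1. The other end of the order held Ero1lb (0.733 ± 0.108), Derl3 (0.624 ± 0.144), Chac1 (0.459 ± 0.189) and Ern1 (0.354 ± 0.151), whose ranges also overlapped. Atf4 was the most abundant transcription factor at 78.8 ± 18.9 RPKM, against 29.7 ± 3.04 for Xbp1, 9.52 ± 2.35 for Ddit3 and 5.58 ± 0.753 for Atf6. Because the strand setting of the counting is not given in the sources used here, reads of antisense genes cannot be told apart for Hsp90b1, Manf, Eif2ak3 and Ddit3, where 10.3%, 8.85%, 8.05% and 4.73% of exon bases overlap a gene on the other strand.

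One heart stood apart from all others across the whole list. The library labelled Nipbl_het replicate 2 had the highest level of all 37 libraries for 34 of 34 members, where 30% of all genes tested were highest in it. It was over 2-fold above the median of the 36 other libraries for 32 of 34 members, against 16.2% of all genes, and the other 2 were Derl1 and Derl2. The folds over that median ran from 1.61 (Derl2) to 257 (Derl3), with a median of 4.01. These are values of a single heart and carry no replicate error. Since the gene lists were chosen with earlier results of these data known, the shares describe this heart and are not a test.

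**Figure D1:**
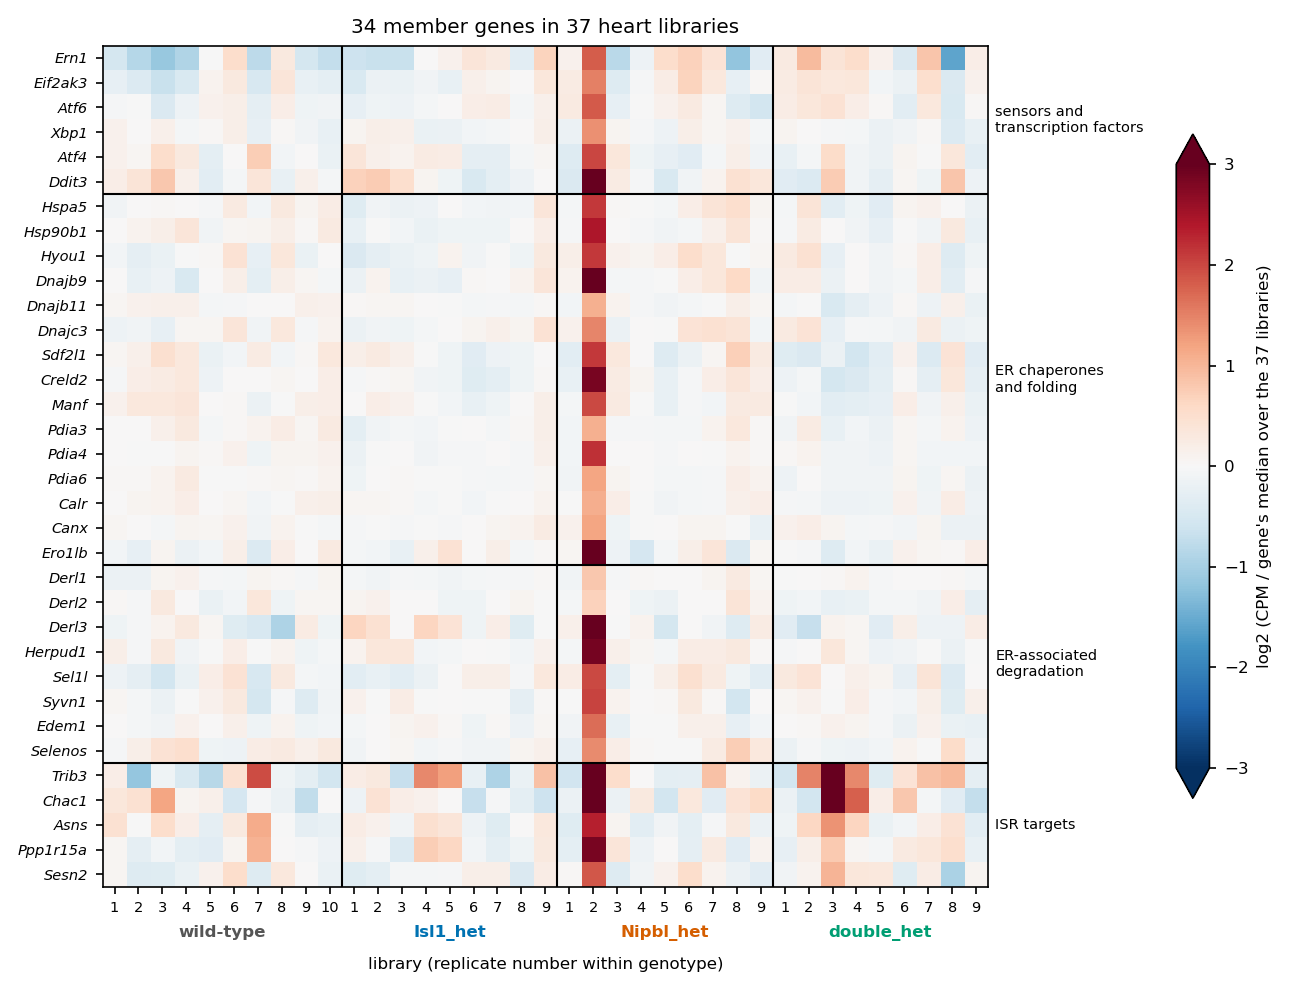
Each cell is log2 of a member's CPM over its median across 37 libraries (columns, grouped by genotype; rows, the 34 members grouped by role), with colours cut at -3 and 3. Nipbl_het replicate 2 is red in all 34 rows, whereas double_het replicate 3 is red mainly among the 5 targets of the integrated stress response (ISR). Wild-type replicate 7 is red mainly for the targets Trib3, Asns and Ppp1r15a and for Atf4, and not for the targets Chac1 and Sesn2.

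Among the transcription factors, Ddit3 (CHOP, which promotes cell death under lasting stress) stood furthest out. Wild-type hearts had 11.5, 16.0 and 25.4 CPM (lowest, median and highest), Isl1_het 10.6, 14.4 and 24.5, double_het 10.9, 13.2 and 25.7, and the 8 other Nipbl_het hearts 10.4, 14.8 and 19.7, while this library had 702 CPM. The 4 genotypes overlapped fully without it. Atf4, the effector of the integrated stress response, reached 674 CPM against 129 to 280 CPM elsewhere. Xbp1, which activates chaperone and degradation genes, reached 250 CPM against 72.4 to 109 CPM. Among the sensors, Atf6 was 3.57-fold, Ern1 3.56-fold and Eif2ak3 2.87-fold above the median of the others, and Xbp1 was 2.61-fold above it.

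All 15 chaperones and folding genes were over 2-fold above that median in this library, from 2.09-fold (Pdia3) to 11.8-fold (Dnajb9, an ERdj4 co-chaperone that restrains IRE1). Hspa5 stood at 5308 CPM. The other libraries had 951 to 1710 CPM, with a median of 1213. Hsp90b1 reached 7038 CPM, against 1107 to 1715 CPM. Creld2 and Manf, small secreted ER proteins induced by ER stress, reached 603 CPM (57.5 to 108 elsewhere) and 773 CPM (158 to 251 elsewhere). Ero1lb, an ER oxidase, was 8.68-fold above the median of the others. The abundant lectin chaperones Calr and Canx were nearer to the other libraries, at 2.14-fold and 2.29-fold.

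The degradation genes held both ends of the range. Derl3, a Derlin of the channel through which misfolded proteins leave the ER, had 12541 counts in this library (342 CPM) and 19 to 69 counts in each of the others. Its paralogs Derl1 and Derl2 were 1.76-fold and 1.61-fold above the median of the others. Herpud1, a scaffold of the degradation complex, reached 322 CPM, against 38.7 to 55.9 CPM elsewhere. Sel1l and Syvn1, which form the core ubiquitin ligase, were 3.98-fold and 4.07-fold higher, and Edem1 and Selenos 3.21-fold and 2.66-fold.

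Targets of the integrated stress response had the largest median difference of the 4 roles, 2.85 on the log2 scale, against 2.13 for chaperones, 1.84 for degradation genes and 1.83 for sensors and transcription factors. Trib3, a pseudokinase that restrains ATF4 and CHOP, reached 131 CPM against a median of 3.89 elsewhere. Chac1, which degrades glutathione, reached 21.0 CPM against 0.661. Ppp1r15a (GADD34), the regulatory subunit that brings protein phosphatase 1 to eIF2 alpha and so helps to end the response, reached 169 CPM against 23.5. Asns (asparagine synthetase) and Sesn2 (a leucine sensor) were 5.04-fold and 3.67-fold higher. Over the 30 members with a promoter window, the 4 with a CARE sequence had a median fold of 19.6 and those without it 3.83. The 4 were spread widely, with Asns at 5.04, Herpud1 at 7.32, Chac1 at 31.8 and Trib3 at 33.8. Derl3, without a CARE sequence, was at 257. Members with an ERSE had a median fold of 4.23, against 4.01 without it.

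**Figure D2:**
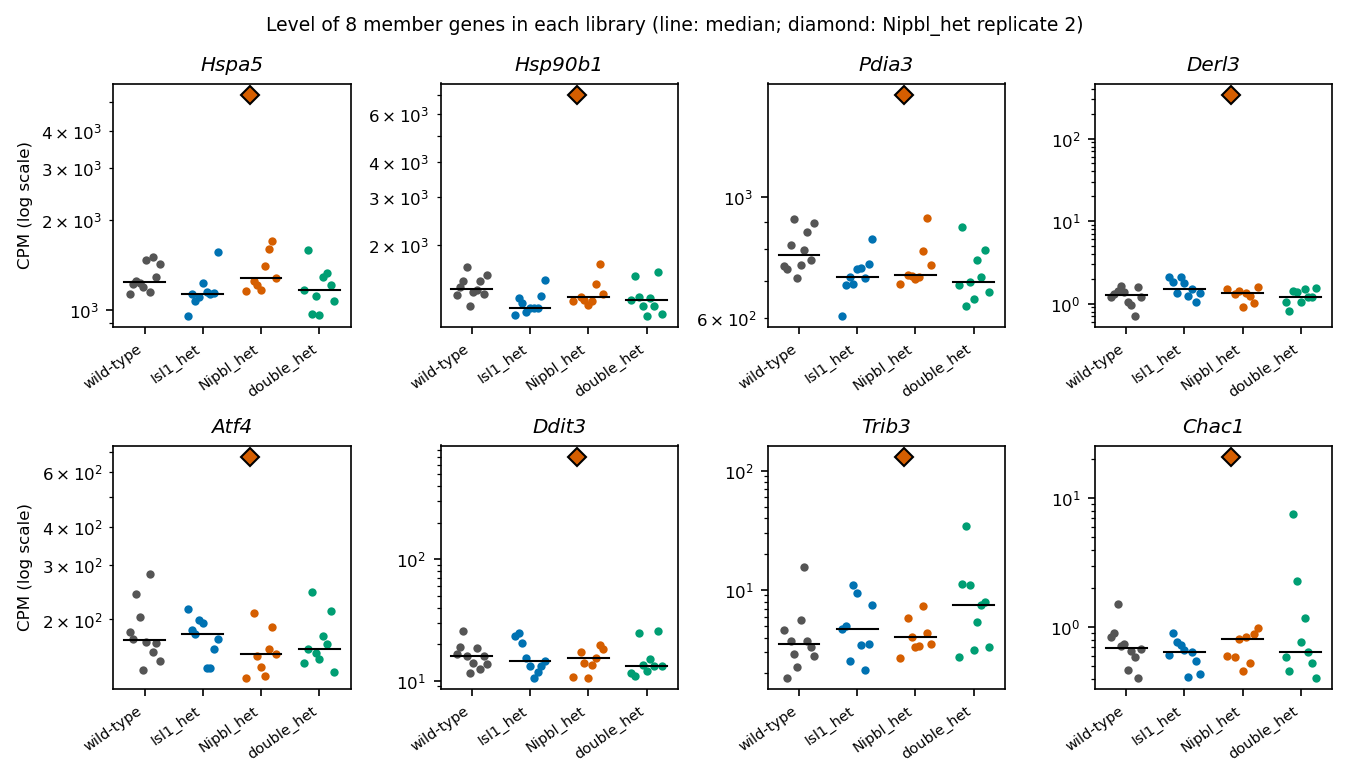
CPM on log axes for 8 members in every library, by genotype; lines mark group medians and the diamond marks Nipbl_het replicate 2. The diamond lies above all other points in each panel, at 5308 CPM for Hspa5 and 342 CPM for Derl3, and double_het replicate 3 is the next highest for Trib3 (34.6 CPM) and Chac1 (7.48 CPM).

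Genes of other stress responses were also high in this heart, though not all of them. Of 15 low oxygen response genes, 14 were above all other libraries, and their summed level was 25398 CPM against 6769 to 13968 CPM elsewhere. Of 22 other ATF4 targets tested, 18 were above all others (median log2 difference 1.45). For aminoacyl-tRNA synthetases, many of which ATF4 induces, this held for 9 of 12. Of 11 immediate early genes 8 were above all others. Of the kinases and subunits of eIF2 and eIF2B it was 1 of 12, and of 14 other ER-associated degradation genes 4, with a median log2 difference of 0.16. Of 17 other ER folding and translocation genes 9 were above all others, and of 7 other ER stress transducers 5, where 30% of all genes were. Cytosolic heat shock genes had 4 of 10 above all others, near the 30% of all genes, among them Hspa1a (33.0 CPM against 0.753 to 2.50). Of the same list 2 of 10 were below all others, and its median fold was 1.09. Erythroid markers were the lowest of all libraries, summing to 517 CPM against 833 to 106626 CPM. Macrophage markers summed to 33.3 CPM against 17.2 to 33.6 CPM, with 3 of 6 above all others. Cushion mesenchyme markers, at 137 CPM against 145 to 273 CPM, and neural markers, at 20.9 CPM against 23.8 to 57.0 CPM, were also the lowest of all libraries. The part of these markers, and that of the low oxygen genes, in the members' levels was not tested.

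Hearts with the Nipbl_het label were compared with wild-type over 9 and 10 libraries. Set 1 holds 3 of these wild-type hearts, 3 Isl1_het hearts and no heart labelled Nipbl +/-. With the set number in the model, the comparison therefore rests mainly on the wild-type hearts of sets 2, 5 and 6 (3, 2 and 2 hearts). Group ranges in CPM are not adjusted for set and include set 1. Among those 9, replicate 2 had 72.4 CPM of Nipbl, inside the wild-type range of 47.6 to 78.8 CPM. The 8 others had 27.1 to 44.9 CPM, so the fit with all 37 libraries mixes hearts with and without low Nipbl. With all 37 libraries, 0 of 34 members passed an adjusted p of 0.05 in edgeR, against 1.71% of genes tested (258 of 15046). At an unadjusted p under 0.05 there were 10 members, all higher (29.4%, against 15.1% of all genes), and DESeq2 also called 0. All 34 log2 changes were above 0, with a median of 0.34 against 0.01 over all genes. The highest were Derl3 at 3.84 ± 1.09 (SE, adjusted p = 0.0615), Ddit3 at 2.18 ± 0.683 (adjusted p = 0.0963), Chac1 at 1.60 ± 0.661 (adjusted p = 0.233) and Trib3 at 1.52 ± 0.784 (adjusted p = 0.359).

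Without the library labelled Nipbl_het replicate 2 this pattern was absent. Again 0 of 34 members passed in edgeR, against 2.72% of genes (410 of 15072), with 2 at an unadjusted p under 0.05 (5.88%, against 14.7% of all genes). The median change became -0.02, with 14 members above and 20 below 0, and 20 of 34 changed sign. Hspa5 then differed by -0.01 (95% interval -0.13 to 0.11), Ddit3 by 0.11 (-0.18 to 0.40) and Derl3 by 0.16 (-0.14 to 0.47). Trib3 differed by -0.11, with a wide interval of -1.02 to 0.80. The median standard error of the members fell from 0.206 to 0.0776 on the log2 scale, so the smaller fit was also the more precise one.

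**Figure D3:**
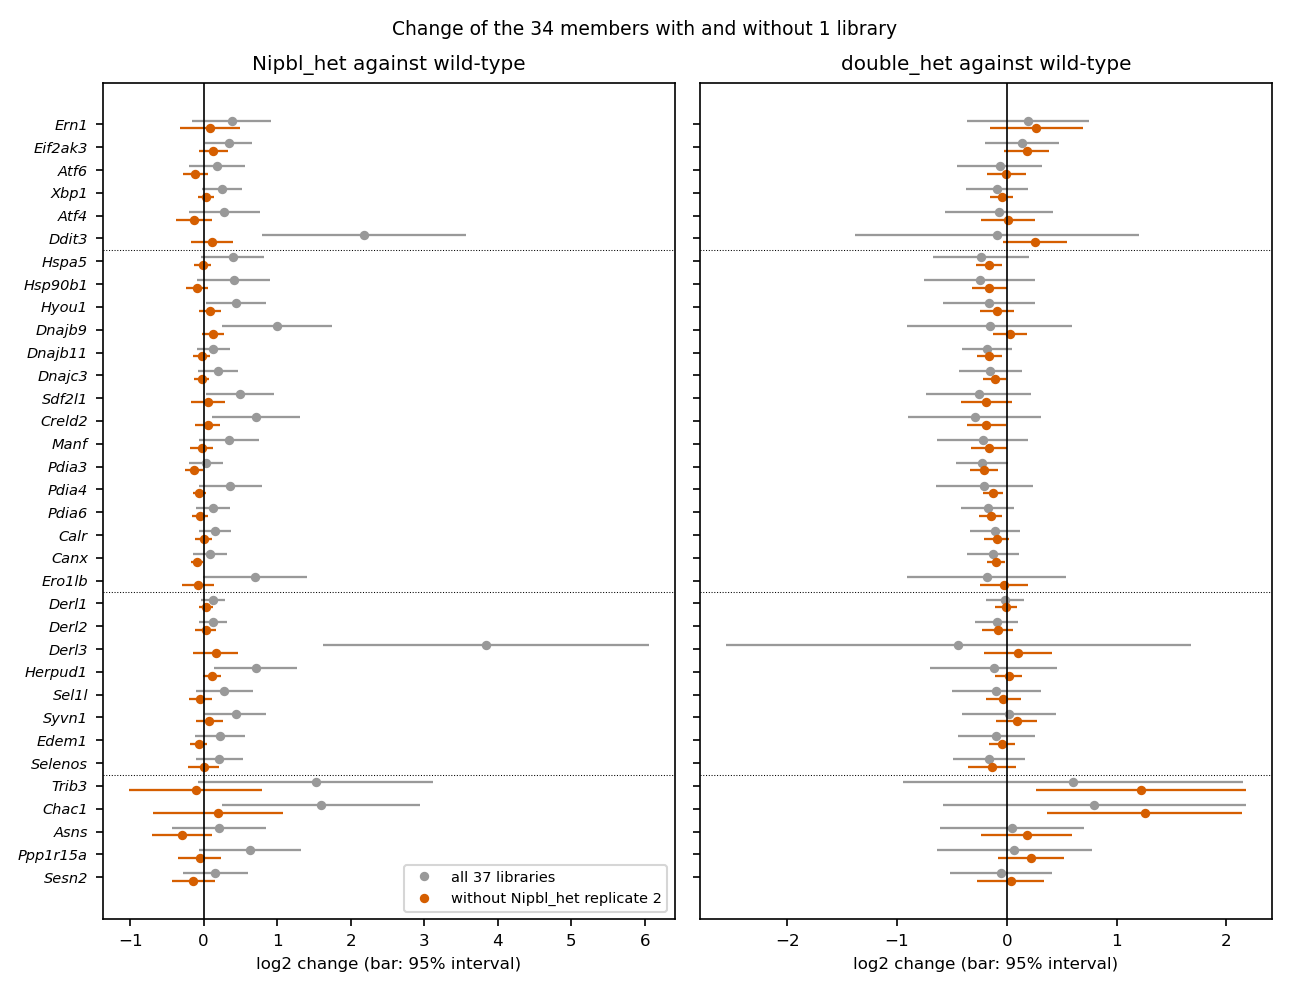
Log2 change of each member with its 95% interval in Nipbl_het (left) and double_het (right) against wild-type, with all 37 libraries (grey) and without Nipbl_het replicate 2 (orange); dotted lines separate the 4 roles. In Nipbl_het the 34 grey points lie right of 0 and the orange points lie around it, and in double_het 14 of 15 orange chaperone points lie left of 0.

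With 1 Isl1 allele lost, no member passed the threshold. With all libraries, 0 of 34 members passed, against 0% of genes (0 of 15046 in edgeR, 886 at an unadjusted p under 0.05, of which 0 were members). Without the library labelled Nipbl_het replicate 2, 0 members passed against 0.0133% of genes. In that fit 12 of 15 chaperones were below wild-type, with a median of -0.07 against -0.01 over all genes, and 4 had an unadjusted p under 0.05, as 11.8% of all genes did. Over the whole list it was 5 of 34 (14.7%), and the fifth, Derl3, was higher, at 0.31. Epicardial markers had medians of 496 CPM in Isl1_het (307 to 553) and 411 CPM in wild-type (261 to 463), with overlap, and their part was not tested. Hsp90b1 had 1202, 1395 and 1675 CPM in wild-type (lowest, median, highest) and 1118, 1185 and 1500 CPM in Isl1_het, and the groups overlapped. Its change was -0.19 ± 0.0704 (SE, adjusted p = 0.358), and -0.23 ± 0.227 (adjusted p = 0.882) with all libraries.

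In double heterozygotes 1 member, the chaperone Pdia3, passed the test against wild-type, in the fit without the library labelled Nipbl_het replicate 2, and none of the 5 targets of the integrated stress response passed in either fit. With 2 surrogate variables, estimated from the expression values themselves, added to the model of all 37 libraries, 9 members passed, all lower and 8 of them chaperones or folding genes (Hspa5 at -0.25, Pdia3 at -0.22), against 11.8% of all genes. Markers of other cell types differed as well: 7 epicardial markers, none at 0 in all libraries, summed to 519 to 674 CPM in double_het (median 634) and 261 to 463 CPM in wild-type (median 411), without overlap. The 7 endothelial markers had medians of 775 and 640 CPM, with overlap. Their part in the members' differences was not tested. Set 7 holds 1 double_het library and is fitted exactly, so the comparisons of double_het rest on the 8 others. Set 1 holds no double_het heart, so its 3 wild-type hearts have no direct counterpart here either. With all 37 libraries 0 of 34 members passed in edgeR, against 2.60% of genes (391 of 15046), and 0 members had an unadjusted p under 0.05. All 15 chaperones lay below 0, with a median of -0.18 against 0.00 over all genes. Without the library labelled Nipbl_het replicate 2, 1 of 34 passed, against 5.57% of genes (839 of 15072). That gene was Pdia3, at -0.21 ± 0.0630 (SE, adjusted p = 0.0476), against -0.23 ± 0.116 (adjusted p = 0.460) with all libraries. Pdia3 had 710, 782 and 908 CPM in wild-type and 631, 697 and 881 CPM in double_het (lowest, median, highest). The groups overlapped, although 5 of 9 double_het hearts lay below every wild-type heart. In this fit 14 of 15 chaperones were lower, with a median of -0.15, and 10 of them had an unadjusted p under 0.05, as 19.2% of all genes did. Hspa5 was one, at -0.16 (95% interval -0.28 to -0.04, adjusted p = 0.106), against -0.24 (-0.67 to 0.20, adjusted p = 0.756) with all libraries. With double_het replicate 3 also left out, Pdia3 changed by -0.18 and no longer passed (adjusted p = 0.0974). The lowering was not alike in all sets. With that heart kept, Pdia3 differed from wild-type by -0.06, -0.27 and -0.18 within sets 2, 5 and 6, and Hspa5 by -0.04, -0.20 and -0.17. In set 2 some chaperones were above wild-type, among them Creld2 (0.13), Manf (0.11) and Calr (0.09). These 3 were below it in set 5 (-0.43, -0.39 and -0.22), which holds 2 wild-type hearts.

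The 5 targets of the integrated stress response were all above wild-type in double_het in the fit without that library, with a median log2 change of 0.22 and 2 at an unadjusted p under 0.05 (19.2% of all genes). Chac1 changed by 1.25 (95% interval 0.36 to 2.15, adjusted p = 0.0901) and Trib3 by 1.22 (0.26 to 2.18, adjusted p = 0.132), so neither passed. With all 37 libraries 4 of 5 targets were above 0, with a median of 0.07, and Chac1 changed by 0.80 and Trib3 by 0.60 (adjusted p = 0.734 and 0.837). With double_het replicate 3 also left out, they changed by 0.51 and 0.53 (adjusted p = 0.364 and 0.454). Wild-type hearts had 0.402, 0.695 and 1.51 CPM of Chac1, and double_het 0.405, 0.641 and 7.48 (lowest, median, highest). The double_het median was thus below that of wild-type, and replicates 3 and 4, at 7.48 and 2.30 CPM, were the 2 that exceeded every wild-type heart. Sets 2, 5 and 6 hold 2, 5 and 1 double_het hearts and 3, 2 and 2 wild-type hearts, so the set 6 values rest on 1 double_het heart. Within these sets, the difference of Chac1 was 0.45, 0.77 and 0.26, and that of Trib3 0.31, 1.30 and 0.70. Ppp1r15a was also above wild-type in each (0.10, 0.38 and 0.30), whereas Asns (-0.04, 0.31 and 0.06) and Sesn2 (-0.46, 0.37 and -0.21) were not.

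Against Isl1_het, which shares the Cre allele, 0 of 34 members passed in double_het with all libraries (0.957% of genes did) and 1 without the library labelled Nipbl_het replicate 2 (2.40% of genes). That gene was Chac1, at 1.55 ± 0.436 (SE, adjusted p = 0.0493), against 1.21 (adjusted p = 0.820) with all libraries. With double_het replicate 3 also left out its change was 0.76 (adjusted p = 0.215). Against Nipbl_het, 0 members passed with or without the library, as did 0% of genes, and at an unadjusted p under 0.05 there were 21 members with all libraries (9.01% of all genes) and 8 without the one (7.71% of all genes). The interaction of the 2 alleles called 0 members and 0% of genes in both fits. Averaged over the other genotype, the Nipbl effect called 0 members (4.02% of genes) and the Isl1 effect 0 (0.173% of genes). Without the library both again called 0 members, against 6.93% and 0.372% of genes. The Isl1 effect had 14 of 15 chaperones below 0 in that last fit, with a median of -0.10 and 10 at an unadjusted p under 0.05, as 16.7% of all genes were. These comparisons share samples and are not independent of each other.

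Levels also differed between sets, by a joint test over the sets. With all libraries, 4 of 34 members (Ern1, Eif2ak3, Dnajc3 and Sel1l) differed between sets, a smaller share than the 38.2% of all genes that did. Without the library labelled Nipbl_het replicate 2 it was 18 of 34, against 55.7% of genes, so the members' share was near that of all genes. Hspa5 averaged 1512 ± 128 CPM in set 6 (SD, n = 7) and 1124 ± 107 in set 1 (n = 6), 1248 ± 92.3 in set 2 (n = 9) and 1128 ± 82.1 in set 5 (n = 13, that library left out). Hspa5 passed the test between sets in the fit without that library (adjusted p = 4.86e-06) and not with it (adjusted p = 0.682). Dnajc3 (p58IPK, an inhibitor of PERK) followed the same order at the top, with 81.7 ± 3.52 CPM in set 6 and 56.4 ± 2.12 in set 1. Sel1l and Ern1 were likewise highest in set 6, at 85.8 ± 10.9 and 5.04 ± 1.65 CPM, and lowest in set 1, at 56.5 ± 4.90 and 2.24 ± 0.316 CPM.

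Outside the one heart, 2 hearts chosen after their values were seen had the highest median of the targets of the integrated stress response, without high chaperones. Double_het replicate 4 (targets 0.66, chaperones -0.11), Isl1_het replicate 4 (0.50 and -0.07), Isl1_het replicate 5 (0.38 and -0.02), double_het replicate 7 (0.24 and -0.08), Isl1_het replicate 1 (0.17 and -0.13) and Isl1_het replicate 2 (0.15 and -0.003) had this pattern to a smaller degree, and other hearts had both above the median. In double_het replicate 3, the 5 targets stood 1.36 above the median of the other libraries (median log2 difference) while the 15 chaperones stood at -0.23 and the 6 sensors and transcription factors at 0.42. Its epicardial markers summed to 674 CPM, the highest of all libraries, and its cushion mesenchyme markers to 145 CPM, the lowest of the 36, and their part was not tested. It held 5 members above the 35 other libraries (14.7%, against 6.79% of all genes) and 4 below them (11.8%, against 4.99%). Trib3 stood at 34.6 CPM, Asns at 108 CPM, Chac1 at 7.48 CPM and Sesn2 at 22.5 CPM, and these and Atf6 were the 5 above the 35 others. Dnajb11, Creld2, Manf and Calr were the 4 below them. In wild-type replicate 7 the targets stood at 1.06 and the chaperones at -0.08, with Trib3 at 15.7 CPM, Asns at 91.9 CPM and Ppp1r15a at 48.5 CPM. The other 2 targets were not raised there. Chac1 stood at 0.652 CPM and Sesn2 at 8.58 CPM, against medians of 0.661 and 11.0 CPM outside the library labelled Nipbl_het replicate 2. Wild-type replicate 7 held 2 members (Atf4 and Ppp1r15a) above the 35 others, against 6.93% of all genes, and 0 below them, against 5.56%. Nipbl_het replicate 8 had 10 members above the 35 others (29.4%, against 7.69% of all genes) and 2 below them (5.88%, against 11.9%), with chaperones at 0.27 and targets at 0.22. Isl1_het replicate 9 likewise had both above 0, at 0.18 and 0.31. The low oxygen genes summed to 13968 CPM in double_het replicate 3, the second highest of all libraries, and to 7884 CPM in wild-type replicate 7, and their part was not tested.

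**Figure D4:**
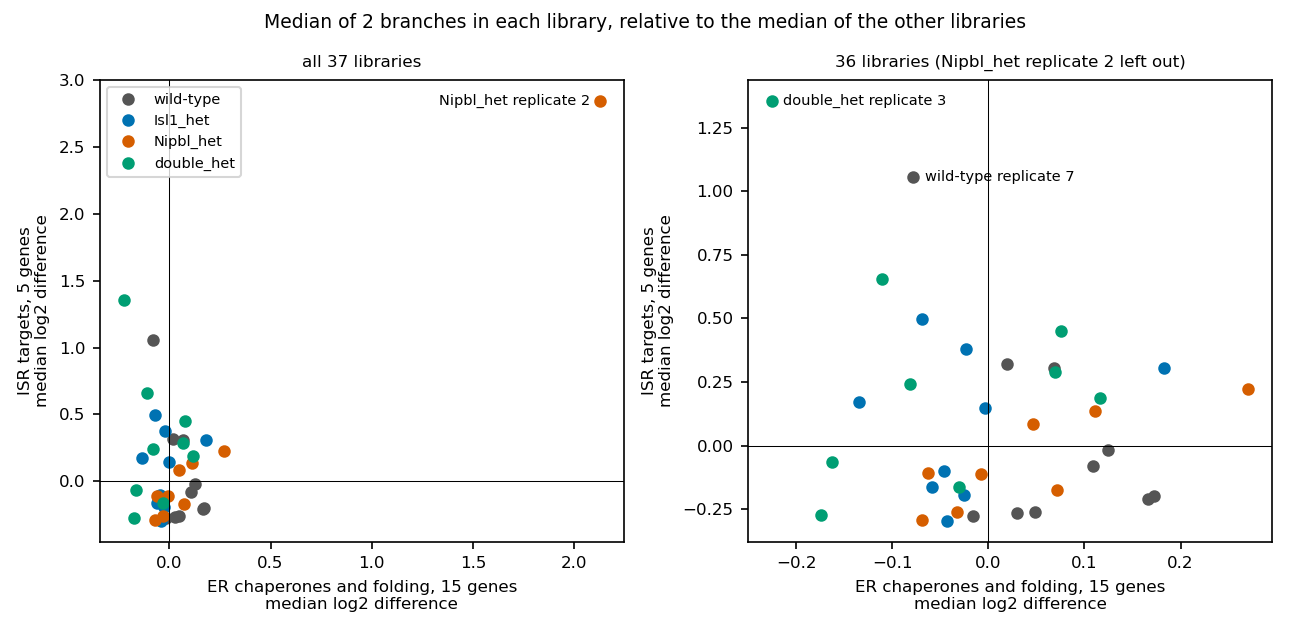
Median log2 difference of 5 ISR targets (vertical) against that of 15 chaperones and folding genes (horizontal), 1 point per library, relative to the median of the other libraries with Nipbl_het replicate 2 left out of the reference. Nipbl_het replicate 2 is high on both axes (left), while double_het replicate 3 and wild-type replicate 7 are high on the vertical axis only (right).

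Correlations across libraries were computed for 6 pairs of members on residuals after genotype and set, leaving out the set 7 library, with 100000 permutations and adjustment over the 6 pairs. Hspa5 and Hsp90b1 varied together, with Pearson r = 0.97 and Spearman rho = 0.81 over 36 libraries. Without the library labelled Nipbl_het replicate 2, r was 0.62 and rho 0.71 over 35 libraries (permutation p = 8e-05 and 1e-05, adjusted 0.00016 and 3e-05). Leaving out the 2 libraries farthest from the median gave r = 0.62 again, and r was 0.94, 0.54, 0.29 and 0.97 within sets 1, 2, 5 and 6. Hspa5 and Pdia4, another disulfide isomerase, had r = 0.98 and rho = 0.90 with that library and r = 0.73 and rho = 0.62 without it (permutation p = 1e-05 and 6e-05, adjusted 3e-05 and 0.00012). This r became 0.64 without the 2 farthest libraries and ran from 0.60 to 0.86 within sets. The value 1e-05 is the smallest that 100000 permutations can give.

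Asns and Trib3 were the most closely tied pair without that library, with r = 0.93 and rho = 0.88 over 35 libraries (permutation p = 1e-05 for both, adjusted 3e-05). This r was 0.85 without the 2 farthest libraries and 0.89, 0.97, 0.96 and 0.49 within sets 1, 2, 5 and 6. Ddit3 and Trib3 had r = 0.52 and rho = 0.39 (permutation p = 0.00241 and 0.0211, adjusted 0.00361 and 0.0317). With double_het replicate 3 also left out, r fell to 0.23 (permutation p = 0.19, adjusted 0.284). In the same setting rho fell to 0.24 (permutation p = 0.165, adjusted 0.247), so neither passed without that library. Between the branches, Hspa5 and Ddit3 had r = 0.92 with all libraries and -0.04 without the one (permutation p = 0.822, adjusted 0.822), and rho was 0.56 and 0.05. Hspa5 and Asns had r = 0.67 and -0.28 (permutation p = 0.00578 and 0.0992, adjusted 0.00578 and 0.119), and rho was 0.35 and -0.12. The positive relation of Hspa5 with Ddit3 and Asns over all sets together thus rests on 1 heart. Without that heart the sets differed in sign. Within sets 1, 2, 5 and 6, r with Ddit3 was 0.14, -0.40, -0.30 and 0.82. For Asns it was -0.03, -0.80, -0.32 and 0.84.

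Atf4 and 3 of the 5 targets of the integrated stress response rose with the level of red blood cell transcripts in the fit without the library labelled Nipbl_het replicate 2, and no member did with all libraries. Erythroid markers (11 genes, among them the embryonic globins Hba-x, Hbb-y and Hbb-bh1) summed to between 833 and 106626 CPM in the 36 libraries, with group medians of 10623 in wild-type, 14625 in Isl1_het, 8441 in Nipbl_het and 15395 in double_het. Their log2 level was added to the edgeR model as a covariate, which gives a slope per doubling of the erythroid level. Without the library labelled Nipbl_het replicate 2, 4 of 34 members rose with this level, against 5.03% of genes, and 1 fell, against 2.82% of genes. Those that rose were Trib3, by 0.47 ± 0.0688 log2 units per doubling (SE, adjusted p = 7.37e-06), Asns by 0.20 ± 0.0329 (adjusted p = 5.05e-05), Ppp1r15a by 0.17 ± 0.0210 (adjusted p = 4.80e-07) and Atf4 by 0.12 ± 0.0208 (adjusted p = 8.59e-05). Ddit3 had a slope of 0.10 ± 0.0312 (adjusted p = 0.0521), Chac1 one of 0.22 ± 0.0976 (adjusted p = 0.162) and Sesn2 one near 0 (adjusted p = 0.995). Within sets, the slope of Chac1 was above 0 in sets 1 and 5 and below it in sets 2 and 6.

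The slope of Trib3 was 0.26, 0.50, 0.64 and 0.31 within sets 1, 2, 5 and 6, and that of Ppp1r15a was 0.10, 0.23, 0.18 and 0.13. With wild-type replicate 7, the library with the highest erythroid level, also left out, the slopes were 0.44 for Trib3 and 0.15 for Ppp1r15a, and 4 members passed above 0 (against 3.05% of genes) and 1 below (against 0.471%). With the 2 libraries farthest from the median erythroid level left out, 5 passed above 0 (against 3.90% of genes), Ddit3 among them, and 1 below (against 1.86%). The gene that fell was Dnajc3, by 0.04 log2 units per doubling (adjusted p = 0.0213), and the chaperones had a median slope of -0.01. With all 37 libraries 0 members passed in either direction, against 3.46% and 1.38% of genes, and the slope of Trib3 was 0.08 ± 0.177. The library added in that fit has the highest member levels and the lowest erythroid level. Erythroid markers stood at 32906 CPM in double_het replicate 3 and at 106626 CPM in wild-type replicate 7, the hearts named above for their Trib3 and Asns levels.

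**Figure D5:**
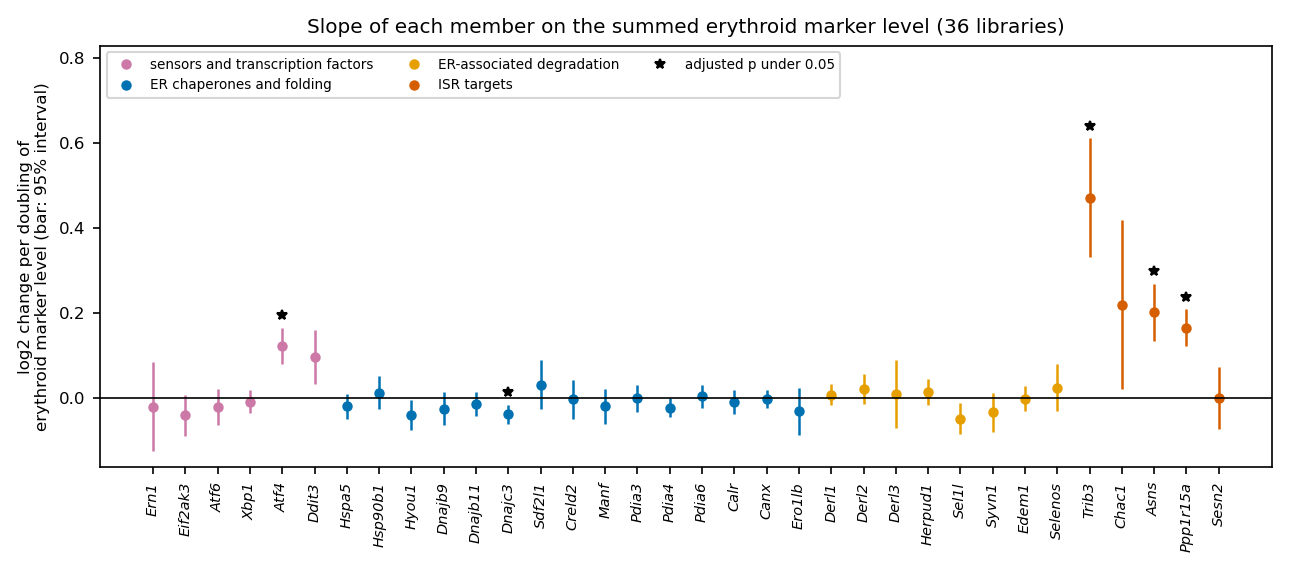
Log2 change of each of the 34 members per doubling of the summed erythroid marker level, with 95% intervals, from the model with genotype and set number over 36 libraries (Nipbl_het replicate 2 left out); stars mark an adjusted p under 0.05. The stars stand over Atf4, Trib3, Asns and Ppp1r15a above 0 and over Dnajc3 below it.

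Other genes were taken from 10 lists of these pathways and of other stress responses, and few passed with genotype. In Nipbl_het, 1 of 22 other ATF4 targets passed in edgeR with all libraries (1.71% of all genes) and 0 without the one (2.72%). That was Nupr1, a stress-induced chromatin protein, at 1.99 ± 0.511 (SE, adjusted p = 0.0327) with all libraries and 0.92 ± 0.264 (adjusted p = 0.0521) without the one. In double_het Nupr1 passed in the fit without it, at 1.15 ± 0.272 (adjusted p = 0.00850). Atf5, a transcription factor of the mitochondrial stress response, passed in double_het in both fits, at 0.45 ± 0.0907 (adjusted p = 0.00300) and 0.45 ± 0.0863 (adjusted p = 0.00117). Hspd1, the mitochondrial chaperonin HSP60, was the 1 of 6 mitochondrial chaperones and proteases that passed in Nipbl_het and in double_het (1.71% and 2.60% of all genes), and was lower. It changed by -0.25 ± 0.0576 (SE, adjusted p = 0.0158) in Nipbl_het and by -0.26 ± 0.0600 (adjusted p = 0.00970) in double_het with all libraries. Without the one, its changes were -0.21 ± 0.0490 (adjusted p = 0.0121) and -0.29 ± 0.0497 (adjusted p = 0.000400). Adm and Car9, of the low oxygen response, and Vcp, which pulls proteins out of the ER for degradation, passed in the fit without that library alone: Adm at 0.47 (adjusted p = 0.0334) in Nipbl_het, Car9 at 1.19 (adjusted p = 0.0348) and Vcp at -0.16 (adjusted p = 0.0428) in double_het.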

How the data were processed

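Raw read counts per gene were deposited by the authors as 1 table of 25239 genes and 37 libraries; the submitters' processing notes name STAR, featureCounts, GRCm38 and mm10. Versions, gene annotation, strand setting and filters are not given in the sources used here. Per the labels' protocols, RNA came from a Monarch miniprep kit and libraries from a NEBNext Ultra II kit. From the deposited counts, genes were kept with edgeR's filterByExpr (minimum count 10, minimum total 15), scaled by TMM and tested with edgeR 4.0.16 (quasi-likelihood F test, genotype and set number, all 37 libraries in 1 fit), with Benjamini-Hochberg adjustment over all genes tested and a threshold of 0.05. Log2 levels use a prior count of 2. Alternatives used DESeq2 1.42.0, limma 3.58.1 and sva 3.50.0. The tests were tried on simulated counts. The 34 members and the other gene lists were chosen with earlier results of these data known. Named genes were the members and, per other list and direction, at most 4 genes past the threshold in a comparison with wild-type or an averaged one. Hspa1a, named as an example in 1 library, and the libraries singled out were chosen after their values were seen. Genes of 10 related lists and 8 marker lists were measured alongside. Intervals cover the fit's error at 95%.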

Additional observations from a re-analysis of the deposited data

Results flagged for a closer look

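Among 136 tests of a member within a genotype, 50 had 1 library whose gap to the nearest other library was large for the group's range (Dixon's criterion), which chance does in about 1 in 20 groups. Of these, 33 lay in the library labelled Nipbl_het replicate 2, which met the criterion for every member except Derl2 (highest there too, by a smaller gap).

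For the sensors and transcription factors its levels were 13.2 CPM for Ern1, 39.2 CPM for Eif2ak3, 191 CPM for Atf6, 250 CPM for Xbp1, 674 CPM for Atf4 and 702 CPM for Ddit3. For the chaperones and folding genes they were 5308 CPM for Hspa5, 7038 CPM for Hsp90b1, 658 CPM for Hyou1, 282 CPM for Dnajb9, 380 CPM for Dnajb11, 174 CPM for Dnajc3, 313 CPM for Sdf2l1 and 603 CPM for Creld2. Manf had 773 CPM, Pdia3 1537 CPM, Pdia4 1145 CPM, Pdia6 1432 CPM, Calr 2597 CPM, Canx 1364 CPM and Ero1lb 42.3 CPM. For the degradation genes they were 154 CPM for Derl1, 342 CPM for Derl3, 322 CPM for Herpud1, 276 CPM for Sel1l, 133 CPM for Syvn1, 103 CPM for Edem1 and 122 CPM for Selenos. Trib3 had 131 CPM, Chac1 21.0 CPM, Asns 212 CPM, Ppp1r15a 169 CPM and Sesn2 40.4 CPM.

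The other 17 were spread over 6 libraries. In double_het replicate 3 they were Herpud1 at 55.5 CPM, Trib3 at 34.6 CPM, Chac1 at 7.48 CPM, Asns at 108 CPM and Sesn2 at 22.5 CPM. In wild-type replicate 7 they were Trib3 at 15.7 CPM, Asns at 91.9 CPM and Ppp1r15a at 48.5 CPM. Isl1_het replicate 9 stood high for Hspa5 at 1571 CPM, Hsp90b1 at 1499.5 CPM and Dnajc3 at 84.3 CPM, and apart for Derl1 at 89.96 CPM. Wild-type replicate 3 stood high for Ddit3 at 25.4 CPM and Chac1 at 1.51 CPM, and wild-type replicate 4 for Pdia6 at 759 CPM. Double_het replicate 8 stood apart for Derl2 at 33.7 CPM and Selenos at 66.8 CPM.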

How the results depend on the processing

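Of the values under alternatives, 344 were labelled the same, 31 turned sign, 12 moved, 15 gained and 2 lost significance. For changes, correlations and slopes, the same meant the same side of the threshold and the same direction. Counts had to stay within 1.5 times. Mean levels in Nipbl_het counted as the same if leaving out replicate 2 moved them by less than the group's SD. That library itself widens this SD, so these labels say little. The mean of Ddit3 fell from 91.2 CPM (SD 229) to 14.9 CPM and still counted as the same. The cause of each shift below was not tested. Without the set number, 3 members passed in Nipbl_het against wild-type (Ddit3, Derl3, Dnajb9; 3.10% of all genes did) and 2 in the averaged Nipbl effect (6.95% of all genes). With set 6 left out, 1 passed in Nipbl_het (Derl3; 1.15% of all genes). With 2 surrogate variables, 9 members passed in double_het against wild-type, all lower (Canx, Dnajb11, Hsp90b1, Hspa5, Pdia3, Pdia4, Pdia6, Sdf2l1, Sel1l), 2 against Isl1_het, 3 in the averaged Nipbl effect and 1 in the averaged Isl1 effect, where 11.8%, 5.07%, 13.7% and 1.62% of all genes passed. Without Nipbl_het replicate 2, 1 passed in double_het against wild-type and 1 against Isl1_het. The set term called 18 members without that library (55.7% of all genes), 1 with set 1 left out (22.8%), and 20 without Nipbl_het replicate 2 and double_het replicate 3 (56.3%).

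Of the changes against wild-type followed under every alternative, those of Hspa5, Trib3, Pdia3, Ddit3 and Derl3 turned sign in at least 1. Over all 34 members, 4 turned in Isl1_het, 20 in Nipbl_het and 6 in double_het without Nipbl_het replicate 2. In Nipbl_het, Hspa5 stood at -0.013 without Nipbl_het replicate 2, -0.024 with surrogate variables and -0.013 with both libraries left out. Trib3 stood at -0.11, -0.22 and -0.064 in the same order, and at -0.31 without set 5. Pdia3 stood at -0.13, -0.14 and -0.13, at -0.094 without set 5 and at -0.019 with the erythroid level as covariate. In double_het, Ddit3 stood at 0.26 without that library, 0.28 without set 5, 0.11 without set 6, 0.21 with the erythroid level and 0.14 with both left out. Derl3 stood at 0.10, 0.19 without set 5, 0.34 with the erythroid level and 0.093 with both left out. Leaving out 1 library at a time (Nipbl_het replicate 2, double_het replicate 3 or wild-type replicate 7) gave -0.013 to 0.39 for Hspa5, -0.11 to 1.88 for Trib3 and -0.13 to 0.027 for Pdia3 in Nipbl_het, and -0.12 to 0.26 for Ddit3 and -0.47 to 0.10 for Derl3 in double_het. The correlation of Hspa5 with Ddit3 was -0.040 without the library (up to 0.95 without another) and 0.17 with both left out, that of Hspa5 with Asns -0.28 (up to 0.77) and -0.14, and that of Ddit3 with Trib3 0.23 with both left out. The erythroid slope of Ddit3 was 0.10 without the library, 0.10 also without wild-type replicate 7 and 0.13 also without the 2 libraries of most extreme erythroid level. That of Ppp1r15a was 0.17, 0.15 and 0.16.

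Replicate numbers did not pair the libraries: of 54 same-numbered pairs, 17 had a correlation over 0.1 (median 0.03), and 3 of 37 libraries correlated best with their own number. With the replicate number as a block, 0 members passed in each of 8 comparisons, and Derl3 in double_het stood at 0.087. Alternatives that leave out both libraries, or wild-type replicate 7, were chosen after seeing the data. Depth limits members at low counts. Outside the one library, Chac1 had 12 to 287 counts, Derl3 19 to 69 and Ern1 33 to 303. How far depth limits each member was not compared.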
